A study of Homo sapiens with 2 samples.

Results

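The 42 genes described here encode subunits of the proteasome, together with its activators, some of its assembly factors and the transcription factor NFE2L1. They were chosen by gene symbol, with earlier results of these data known. All 42 were found among the 57485 genes listed in each library. All 42 also belonged to the 14859 genes that reached at least 1 FPKM (fragments per kilobase of transcript, scaled to the fragments mapped) in at least 1 library, which are called the genes tested below. The genes were taken in 6 groups: the 7 PSMA genes, the 7 constitutive PSMB genes, the 3 immunoproteasome genes PSMB8 to PSMB10, the 6 PSMC genes, 11 PSMD genes, and a last group of 8 genes with the PSME activators, the assembly factors PSMG1, PSMG2 and POMP, and NFE2L1.

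To look for genes that differ after SRD5A1 knockdown, the study sequenced poly(A) RNA of ARP1-SRD5A1-KD cells that had or had not received doxycycline (Dox). ARP1 is a human multiple myeloma (MM) cell line, that is, a line of malignant plasma cells, and here it carried a lentiviral hairpin against SRD5A1, a steroid reductase, whose expression Dox switches on. There was 1 untreated library and 1 library labelled with Dox, both from hairpin-carrying cells, so no library of cells without the hairpin, or of such cells given Dox, entered the comparison. Dox itself and the hairpin cannot be told apart in it. The Dox dose and duration for these RNA samples, and whether the cells were a clone or a pool, were not given in the sources used here. For the Dox library, SRD5A2 stands in the genotype field, while its title and the series design name SRD5A1.

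SRD5A1 itself had 13.04 FPKM (1375 counts) without Dox and 25.88 FPKM (3014 counts) under the Dox label, so the targeted RNA was higher where the label says the hairpin was on. Directions below therefore refer to the labels only. Total expected counts were 45918570 and 48728927, in that order, which is also the order in which paired values are given below. The 7 plasma cell markers summed to 1870.23 and 1896.73 FPKM. T cell markers summed to 0.31 and 0.22 FPKM (CD3D was listed at 0), myeloid markers to 0.39 and 0.44 FPKM, and fibroblast markers to 0.15 and 0.46 FPKM (DCN was listed at 0). Of the epithelial markers, EPCAM had 1.93 and 1.52 FPKM, and KRT19 was listed at 0 and 0.04 FPKM. Since 1 library stands for each condition, no difference has a replicate check and no p-value is given, and less RNA per cell cannot be told apart from fewer cells that make it. Ratios are log2((FPKM labelled with Dox + 0.1)/(FPKM untreated + 0.1)), and the 95% intervals beside them were computed from the counts by the exact Clopper-Pearson method, so they hold only the error of counting.

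The proteasome is the protease complex that degrades proteins tagged with ubiquitin. Its core particle is a barrel of outer alpha rings (PSMA genes) and inner beta rings (PSMB genes), and a regulatory particle of ATPases (PSMC genes) and non-ATPase subunits (PSMD genes) binds, unfolds and feeds the substrates. In cells exposed to interferon gamma, the catalytic beta subunits are replaced by PSMB8, PSMB9 and PSMB10 to form the immunoproteasome, which makes peptides for antigen presentation. Plasma cells make large amounts of antibody and load the proteasome heavily, and proteasome inhibitors such as bortezomib are standard drugs in MM. NFE2L1 is the transcription factor known for raising proteasome gene expression when proteasome activity is short, and it binds antioxidant response elements in their promoters.

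The letters of that element, TGACNNNGC, were searched on both strands of the promoters listed by RefSeq (GRCh38.p14, from 250 bases before to 50 bases after each start). The table held 46 promoters of 37 members, and PSMA7, PSMB1, PSMB6, PSMB7 and PSMD4 had no entry. A match was found in 13 of the 46 promoters (28.3%), against 13.3% of all 35116 promoters and 14.6% of the promoters of genes tested. In 11 members the match lay before the start. The 5 windows below are shown because they come from PSMA4 and PSMB9, which were higher in the library labelled with Dox, and from PSMB3, PSMD12 and PSMD3, which were lower. Each is written 5′ to 3′ on the strand of its gene with 16 bases on either side, and capitals mark the match.
PSMA4, chr15:78540644-78540684, plus strand: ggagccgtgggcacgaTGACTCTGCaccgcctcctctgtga
PSMB9, chr6:32854028-32854068, plus strand: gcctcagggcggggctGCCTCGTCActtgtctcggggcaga
PSMB3, chr17:38752621-38752661, plus strand: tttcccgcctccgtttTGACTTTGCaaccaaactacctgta
PSMD12, chr17:67366718-67366758, minus strand: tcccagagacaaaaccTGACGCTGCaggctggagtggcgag
PSMD3, chr17:39980754-39980794, plus strand: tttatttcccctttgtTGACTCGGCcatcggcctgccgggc
The match began 126 bases before the start in PSMA4, 148 in PSMB9, 104 in PSMB3, 165 in PSMD12 and 37 in PSMD3. In PSMB9 it reads on the opposite strand.

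A palindrome, TTCNNNGAA, the core of the gamma interferon activation site, was found in 7 of the 46 promoters (15.2%), against 7.66% of all promoters and 6.08% of those of genes tested. In 6 members it lay before the start. The PSMB8 and PSMB5 windows are printed because these genes encode the immunoproteasome and constitutive subunits for the same position of the core.
PSMB8, chr6:32844088-32844128, minus strand: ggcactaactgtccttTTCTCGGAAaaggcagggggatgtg
PSMB5, chr14:23035034-23035074, minus strand: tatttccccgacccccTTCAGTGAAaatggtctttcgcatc
The palindrome began 65 bases before the start in PSMB8 and 158 in PSMB5, where a second match, not printed, began 15 bases before the start. Such matches are descriptions of the sequence, and whether any factor was bound there was not measured.

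Most proteasome genes had lower RNA levels in the library labelled with Dox, while NFE2L1 was much higher. Of the 42 members, 38 had a log2 ratio below 0, against 41.5% of all genes tested, and the exceptions were NFE2L1, PSMB9, PSMA4 and PSMG2. The median log2 ratio of the members was -0.49, with quartiles of -0.84 and -0.24, whereas the median of all genes tested was 0.15. Past 2-fold, 4 members were lower (PSMB6, PSMD1, PSMD8 and PSMD3), against 6.41% of genes tested, and 1 was higher (NFE2L1), against 17.0%. Past 1.5-fold, 17 members were lower and 1 was higher, against 15.4% and 29.3% of genes tested. These calls depend on the scale of the library, for the members and for all genes. With TMM factors, 12 members were lower and 1 higher past 2-fold, against 10.3% and 13.1% of genes tested, and 30 were lower past 1.5-fold. With TPM, 3 were lower past 2-fold, against 5.26% of genes tested, and 15 past 1.5-fold. With expected counts over the library total, 5 were lower past 2-fold, against 5.61%, and 19 past 1.5-fold. Shares of all genes past 1.5-fold were not taken on these other scales. Counts by group and list below are on the deposited FPKM, and calls near 1.5-fold can be lost or gained on another scale.

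Highly expressed genes as a class also sat lower. Among the 2813 genes whose higher value was 50 FPKM or more, a class added after the values were seen, the median log2 ratio was -0.11 and 58.3% of genes were below 0. In that class 7.47% of genes were more than 2-fold lower and 7.64% more than 2-fold higher, and 21.0% were more than 1.5-fold lower and 14.2% more than 1.5-fold higher. The members' median was below that of this class as well.

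**Figure D1:**
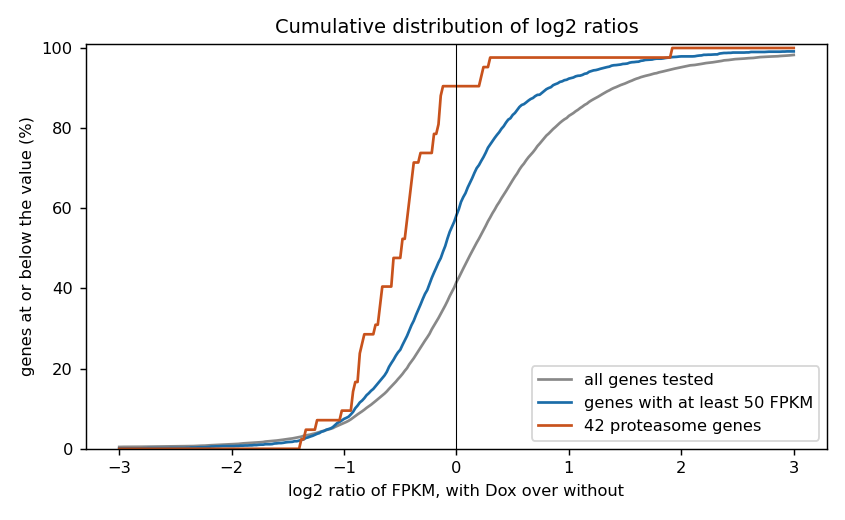
Cumulative share of genes (y axis, percent) at or below each log2 ratio of FPKM (x axis, labelled with Dox over untreated) for all genes tested, for genes with at least 50 FPKM and for the 42 proteasome genes. The curve of the proteasome genes lies to the left of both others through most of its range, with a median of -0.49 against 0.15 and -0.11, and its last step near 1.9 is NFE2L1.

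Added up, the members held 6963.13 FPKM without Dox and 5201.36 FPKM under the Dox label, or 0.764% and 0.61% of all FPKM. Without NFE2L1, which is no part of the complex, the sums were 6885.87 and 4909.93 FPKM, a log2 ratio of -0.49. The order of levels among the members was largely kept, with a Spearman rho of 0.841 across the 42 genes, which share both libraries and are not independent. The SD of log2 FPKM over the members was 1.03 in the untreated library and 1.09 in the library labelled with Dox. PSMB4 and PSMA4 were the most abundant members in both libraries and PSME4 the least. With at least 1127 counts behind each member, the widest interval spanned 0.228 log2 units. On the deposited FPKM every one of the 42 intervals excluded 0, and 41 excluded the median of all genes tested. Whether 0 is excluded depends on the scale for PSMB9, PSMA4 and PSMG2.

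**Figure D2:**
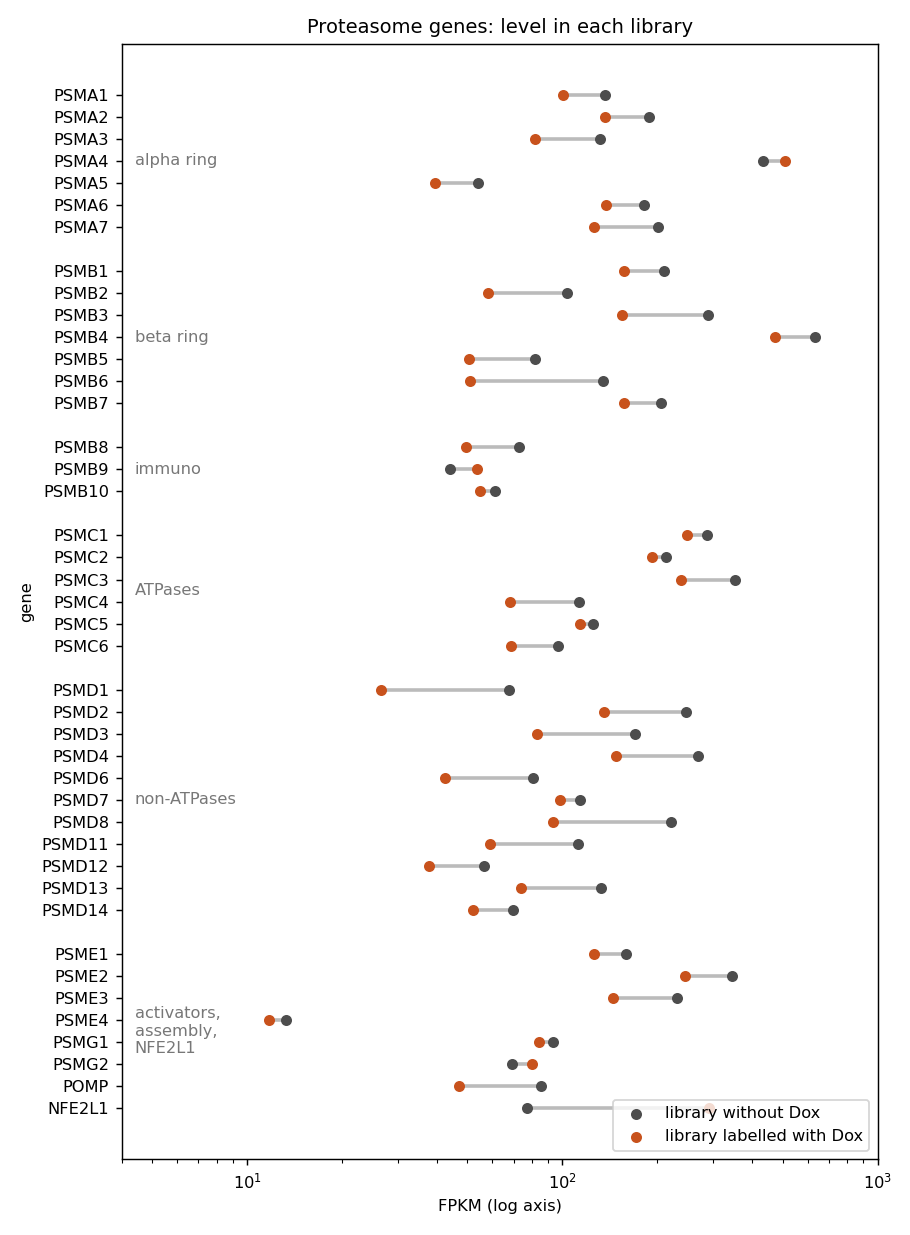
FPKM of the 42 genes (x axis, log scale) in the untreated library (dark points) and in the library labelled with Dox (orange points), with genes in rows by group and a grey line joining the 2 values of a gene. The orange point lies to the left in 38 genes, and the longest line to the right is that of NFE2L1, from 77.26 to 291.43 FPKM.

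NFE2L1 is translated into the endoplasmic reticulum membrane, from where it has to be extracted, deglycosylated and cleaved before it acts in the nucleus. In GENCODE 29 (GRCh38) the gene lies on the plus strand of chromosome 17 from 48048329 to 48061487, and the deposited data list 23 transcripts for the gene. It had 77.26 FPKM (10688 counts) in the untreated library, and the level under the Dox label was 291.43 FPKM (44267 counts). That is a log2 ratio of 1.91 (1.88 to 1.94), or 3.77-fold higher, and it moved the gene from rank 33 to rank 3 in level among the 42. A ratio at least as high was seen in 785 genes, or 5.28% of genes tested. The RefSeq promoter of NFE2L1 held neither motif. The 11 members with a TGACNNNGC match before the start had log2 ratios from -1.03 to 0.28, with 3 above 0 and 8 below. Of all 42 members, 4 were above 0 and 38 below.

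In the alpha rings, which gate the entry to the core, 6 of 7 genes were lower and 2 were lower by more than 1.5-fold. The median log2 ratio was -0.46 and the summed level was 1326.17 and 1132.32 FPKM. PSMA3 had 131.91 and 81.91 FPKM, a log2 ratio of -0.69. PSMA7 had 201.6 and 126.07 FPKM (log2 ratio -0.68). PSMA1, PSMA2, PSMA5 and PSMA6 lay close together, with log2 ratios from -0.46 to -0.39. Of the exon bases of PSMA1, 24.7% overlap another gene on the same strand, and those of PSMA2 and PSMA6 overlap other genes by 19.5% or less, so their values are uncertain. PSMA4 went against its group with 432.54 and 509.41 FPKM, a log2 ratio of 0.24 (0.20 to 0.27), and with it became the most abundant of the 42 in the library labelled with Dox. TMM factors moved the median of all genes tested by -0.20, nearly the size of that ratio, so the direction of PSMA4 is not clear on that scale. The promoter of PSMA4 carries the TGACNNNGC match printed above.

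All 7 constitutive beta genes were lower, 4 of them by more than 1.5-fold and 1 by more than 2-fold. Their median log2 ratio was -0.69 and their summed level was 1657.02 and 1101.19 FPKM. PSMB6, which carries the caspase-like activity, had the lowest ratio of all 42 members. It had 134.1 FPKM (3727 counts) and 51.1 FPKM (1489 counts), a log2 ratio of -1.39 (-1.48 to -1.30), or 2.62-fold lower, and 2.96% of genes tested had a ratio as low. The gene lies on the plus strand of chromosome 17 from 4796144 to 4798503.

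The structural beta subunits varied as well. PSMB3 had 288.96 and 154.43 FPKM (log2 ratio -0.90), and PSMB2 had 103.3 and 57.93 FPKM (log2 ratio -0.83). PSMB4, the most abundant member in the untreated library, had 633.52 and 473.71 FPKM (log2 ratio -0.42), and PSMB1 had the same log2 ratio of -0.42. PSMB5, which carries the chymotrypsin-like activity and is the main target of bortezomib, had 81.58 and 50.43 FPKM (log2 ratio -0.69). PSMB7, the trypsin-like subunit, had 205.12 and 156.59 FPKM (log2 ratio -0.39), so the 3 catalytic genes of the constitutive core were not lower by the same amount.

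The immunoproteasome genes did not follow their constitutive partners equally. Their sum was 178.12 and 158.0 FPKM, and their median log2 ratio was -0.15. PSMB8 had 72.97 and 49.36 FPKM (log2 ratio -0.56). PSMB10 had 61.08 and 54.97 FPKM (log2 ratio -0.15). PSMB9 was the only one of the 3 that was higher, with 44.07 FPKM (1127 counts) and 53.67 FPKM (1418 counts), a log2 ratio of 0.28 (0.17 to 0.40) that came to 0.08 with TMM factors. No immunoproteasome gene was past 1.5-fold in either direction on the deposited FPKM, but PSMB8 reached -0.77 with TMM factors and -0.59 with expected counts over the library total.

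Set against the constitutive gene for the same position, the PSMB9 share stood out. The FPKM ratio of PSMB9 to PSMB6 was 0.329 in the untreated library and 1.05 in the library labelled with Dox, so that PSMB9 made up 24.7% and 51.2% of the pair. The log2 ratio of these ratios was 1.68 (1.53 to 1.82), or 3.2-fold, and most of it came from the lower PSMB6. For PSMB10 and PSMB7 the ratio was 0.298 and 0.351, a log2 difference of 0.24 (0.14 to 0.34). For PSMB8 and PSMB5 it was 0.894 and 0.979, a log2 difference of 0.13 (0.02 to 0.24). Any scaling that multiplies a whole library cancels in such ratios, and the intervals were taken by a normal approximation on the log counts. These are RNA levels, and which subunits sat in assembled proteasomes was not measured.

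**Figure D3:**
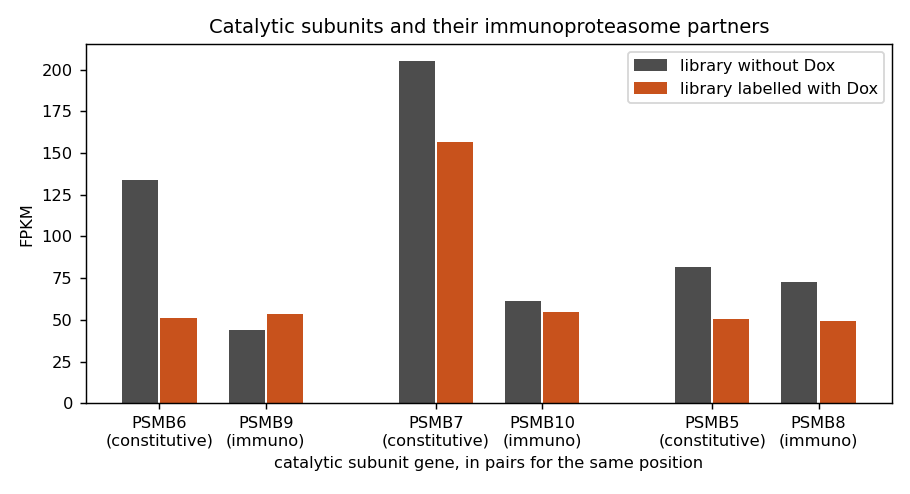
FPKM (y axis, from 0) of the 3 constitutive catalytic genes and their immunoproteasome partners (x axis, in pairs for the same position), with 1 dark bar for the untreated library and 1 orange bar for the library labelled with Dox. PSMB6 goes from 134.1 to 51.1 FPKM and meets PSMB9 at 53.67 FPKM, whereas PSMB7 stays above PSMB10 in both libraries and PSMB5 stays next to PSMB8.

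PSMB8 and PSMB9 lie side by side in the class II region of the major histocompatibility complex on chromosome 6 with the peptide transporter genes TAP1 and TAP2. TAP1, which starts next to PSMB9 on the opposite strand, had 42.93 and 51.58 FPKM (log2 ratio 0.26), close to the 0.28 of PSMB9. TAP2 had 42.04 and 27.77 FPKM (log2 ratio -0.60), close to the -0.56 of PSMB8. With expected counts over the library total, TAP1 and PSMB9 were both at 0.24, whereas TAP2 was at -0.39 and PSMB8 at -0.59. In the annotation, 20.6% of the exon bases of PSMB8 overlap the opposite-strand RNA PSMB8-AS1, and 34.8% of those of PSMB10 overlap another gene on the same strand, AC040162.1. Of the exon bases of PSMB9, 5.66% overlap PSMB8-AS1 on the same strand and 4.52% overlap PSMB8 on the other. Since the counting by strand was not stated, how reads were divided there is uncertain.

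The ATPase genes had the mildest differences of the regulatory particle. All 6 were lower, but PSMC4 alone was lower by more than 1.5-fold, and the median log2 ratio was -0.35. These genes form the ring that unfolds substrates, and they summed to 1189.31 and 929.52 FPKM. PSMC4 had 113.02 and 68.36 FPKM (log2 ratio -0.72). PSMC3 had 352.99 and 237.45 FPKM (log2 ratio -0.57), and PSMC6 had 96.77 and 68.76 FPKM (log2 ratio -0.49). The others were within a narrow band. PSMC1 had 287.63 and 248.46 FPKM (log2 ratio -0.21), PSMC2 had 213.91 and 192.38 FPKM (log2 ratio -0.15), and PSMC5 had 124.99 and 114.11 FPKM (log2 ratio -0.13). The values of PSMC1 and PSMC5 are uncertain because 75.8% and 19.5% of their exon bases overlap NRDE2 and FTSJ3 on the other strand.

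The PSMD group was the lowest of the 6. All 11 genes were lower, 8 of them by more than 1.5-fold and 3 by more than 2-fold, and the median log2 ratio was -0.87, a 1.83-fold lower level. The sum of the group was 1539.81 and 849.62 FPKM. Of the 10 members with the lowest ratios, 7 were PSMD genes and 2 were constitutive PSMB genes, and the other one was POMP. The 3 PSMD genes of the base of the particle and the 8 of its lid had medians of -0.87 and -0.88.

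In the base, PSMD1, a scaffold that holds ubiquitin receptors, had 67.83 and 26.56 FPKM, a log2 ratio of -1.35 (-1.41 to -1.29), or 2.55-fold lower. PSMD2, the other large scaffold, had 246.5 and 135.5 FPKM (log2 ratio -0.86). PSMD4, an intrinsic ubiquitin receptor, had 269.73 and 147.63 FPKM (log2 ratio -0.87). Both scaffolds and the receptor were thus lower by more than 1.5-fold.

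In the lid, PSMD8 had 220.62 and 93.31 FPKM, a log2 ratio of -1.24 (-1.29 to -1.19), or 2.36-fold lower. PSMD3 had 170.06 and 83.18 FPKM, a log2 ratio of -1.03 (-1.07 to -0.99), and its interval reached across the 2-fold limit. The structural lid genes PSMD11, PSMD6, PSMD13 and PSMD12 followed. PSMD11 had 112.27 and 58.94 FPKM (log2 ratio -0.93), PSMD6 had 80.55 and 42.41 FPKM (log2 ratio -0.92), PSMD13 had 132.22 and 73.74 FPKM (log2 ratio -0.84), and PSMD12 had 56.32 and 37.74 FPKM (log2 ratio -0.58). The mildest values were those of PSMD14, the deubiquitinase that removes the ubiquitin chain, and of PSMD7, its partner in the lid. PSMD14 had 69.63 and 52.13 FPKM (log2 ratio -0.42), and PSMD7 had 114.08 and 98.48 FPKM (log2 ratio -0.21). For PSMD7, 30.7% of the exon bases overlap a transcript on the other strand, so its value is uncertain.

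Put together by particle, the 14 PSMA and constitutive PSMB genes summed to 2983.19 and 2233.51 FPKM, a log2 ratio of -0.42. The 17 PSMC and PSMD genes summed to 2729.12 and 1779.14 FPKM, a log2 ratio of -0.62. The medians of the log2 ratios were -0.46 and -0.72. Genes are not replicates of a condition, so the difference between the particles was not tested.

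**Figure D4:**
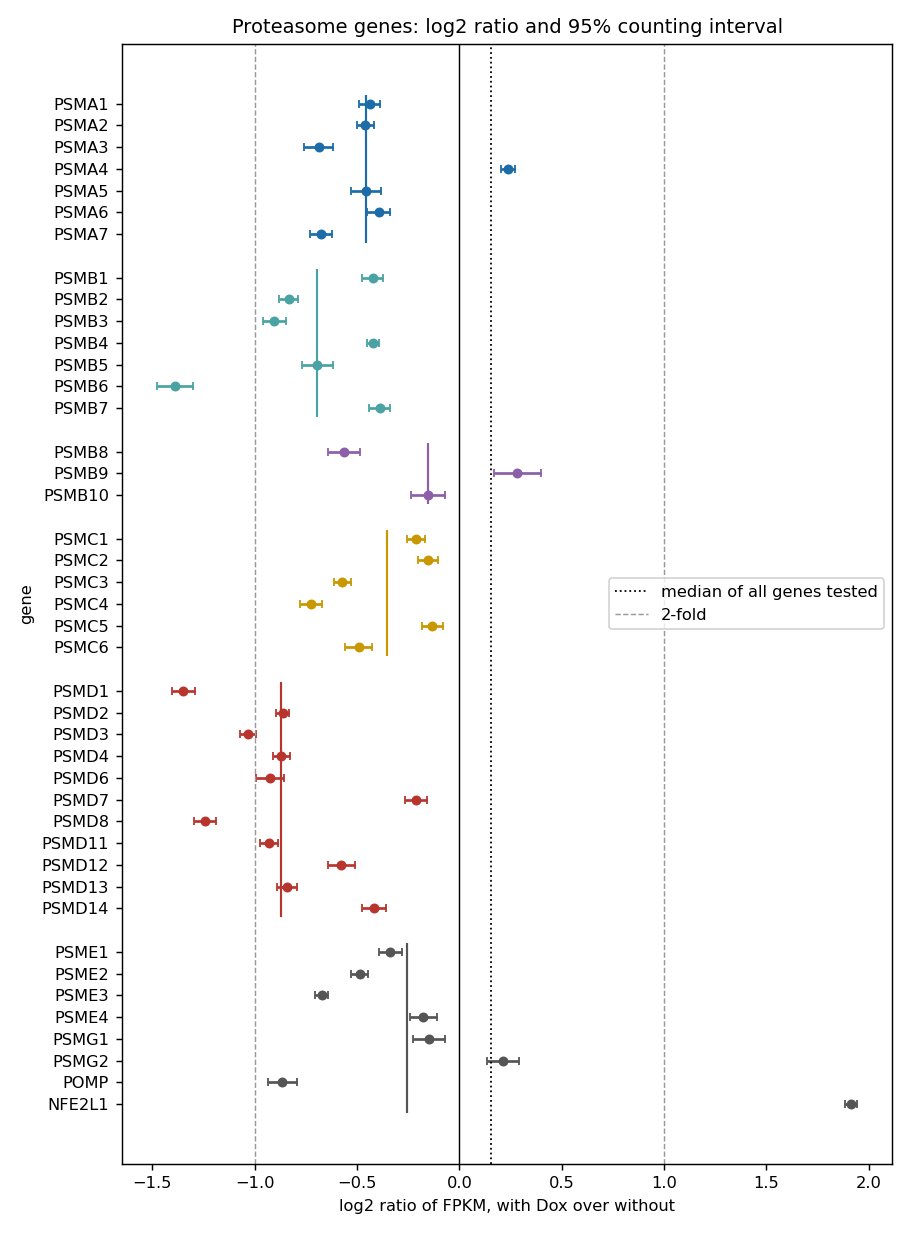
Log2 ratio of FPKM (x axis, labelled with Dox over untreated) for each of the 42 genes (y axis, by group), with the 95% counting interval as a bar and the median of each group as a vertical line in its colour. The dotted line is the median of all genes tested at 0.15 and the dashed lines are 2-fold. The PSMD group has the lowest median at -0.87, with PSMD7 and PSMD14 nearest to 0, and NFE2L1 stands alone at 1.91.

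The activators bind the ends of the core in place of the regulatory particle, and all 4 were lower, with a median log2 ratio of -0.41. PSME1 and PSME2, which together form the interferon-inducible cap, had 159.44 and 126.18 FPKM (log2 ratio -0.34) and 344.1 and 245.51 FPKM (log2 ratio -0.49). PSME3, the nuclear activator, had 230.5 and 144.53 FPKM (log2 ratio -0.67) and was the only activator past 1.5-fold, a call lost with TPM (-0.58). PSME4 had 13.29 and 11.75 FPKM (log2 ratio -0.18).

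The assembly factors differed among themselves. POMP, which is needed for maturation of the core and is degraded when the core is complete, had 85.36 and 46.85 FPKM (log2 ratio -0.86). PSMG1 and PSMG2, which work as a dimer to build the alpha ring, had 93.67 and 84.4 FPKM (log2 ratio -0.15) and 69.08 and 80.06 FPKM (log2 ratio 0.21). The interval of PSMG2 was the only one of the 42 that included the median of all genes tested. TMM factors moved that median by -0.20, nearly the size of the ratio of PSMG2, so its direction is not clear on that scale.

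Genes around the proteasome were then described from 7 further lists, and the lower levels of the members were not shared by all of them. Of 11 further subunits and assembly factors with at least 1 FPKM (PSMB11 was listed at 0), none was past 2-fold, 3 were higher and 1 was lower past 1.5-fold, and the median log2 ratio was -0.06. Of all genes tested, 29.3% were higher and 15.4% lower past 1.5-fold. ADRM1, the ubiquitin receptor that docks on PSMD1, had 137.6 and 74.65 FPKM (log2 ratio -0.88). PSMD10, a chaperone of the ATPase ring, had 20.48 and 35.1 FPKM (log2 ratio 0.77), and PSMD5, another such chaperone, had 18.29 and 12.53 FPKM (log2 ratio -0.54, or -0.08 with expected counts over the library total). AKIRIN2, which brings proteasomes into the nucleus, had 18.32 and 30.37 FPKM (log2 ratio 0.73). Despite the PSMD symbols, the chaperones PSMD5 and PSMD10 are not part of the finished particle.

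The 12 factors that bind the proteasome, such as shuttle receptors and deubiquitinases, had a median log2 ratio of -0.09, and UBQLN4 alone was past 1.5-fold. This shuttle receptor had 69.32 and 41.12 FPKM (log2 ratio -0.75). The arsenite-inducible ZFAND2A had 21.54 and 31.04 FPKM (log2 ratio 0.53). The deubiquitinase UCHL5 had 56.24 and 40.1 FPKM (log2 ratio -0.49), and ZFAND5 had 51.18 and 38.61 FPKM (log2 ratio -0.41).

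Genes that process or control the NFE2L1 protein went in both directions. VCP, the ATPase that pulls it out of the membrane, had 106.96 and 37.2 FPKM, a log2 ratio of -1.52 (-1.57 to -1.48), or 2.87-fold lower. Its cofactors UFD1 and NPLOC4 had 139.54 and 90.5 FPKM (log2 ratio -0.62) and 51.39 and 37.6 FPKM (log2 ratio -0.45). NGLY1, which removes the sugar chains of NFE2L1, was on the other side with 32.92 and 62.31 FPKM (log2 ratio 0.92). DDI2, the protease that cleaves it, had 12.88 and 11.19 FPKM (log2 ratio -0.20). The list of 8 genes also holds SYVN1, FBXW7 and BTRC, with log2 ratios of 0.14, 0.08 and 0.17. Of the 8, 1 was higher and 2 were lower past 1.5-fold, against 29.3% and 15.4% of genes tested. Their median was -0.06, and it rests in part on SYVN1, FBXW7 and BTRC. UFD1 is listed under its older symbol UFD1L and was not past 1.5-fold with TPM (-0.53) or expected counts over the library total (-0.35). DDI2, SYVN1, FBXW7 and BTRC were named after their values were seen. The NFE2L1 protein itself was not measured.

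Among 7 relatives, partners and regulators of NFE2L1, 2 were higher and 2 were lower past 1.5-fold, with a median log2 ratio of 0.28. Of all genes tested, 29.3% were higher and 15.4% lower past that limit, so the share of higher genes was near that of all genes. NFE2L2, the related factor of the oxidative stress response, had 27.53 and 50.36 FPKM (log2 ratio 0.87). KEAP1, which targets NFE2L2 for degradation, had 52.02 and 34.63 FPKM (log2 ratio -0.59), just past 1.5-fold, and fell short of it with TPM (-0.49), expected counts over the library total (-0.54) and a pseudocount of 1 (-0.57). BACH1, a repressor at the same elements, had 9.78 and 18.92 FPKM (log2 ratio 0.94), and MAFK, a small MAF partner, had 12.25 and 5.18 FPKM (log2 ratio -1.23). Higher levels were therefore seen in NFE2L1, NFE2L2 and BACH1 side by side, and lower levels in KEAP1 and MAFK. The small MAF genes did not move together, since MAFG had a log2 ratio of 0.35 and MAFF of 0.04. NFE2L3 had a log2 ratio of 0.28. MAFG, MAFF and NFE2L3 were named after their values were seen.

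Upstream of the proteasome, the 4 ubiquitin and E1 genes described had a median log2 ratio of -0.35. UBA1, the main ubiquitin-activating enzyme, had 128.67 and 71.62 FPKM (log2 ratio -0.84) and was the only one past 1.5-fold. The second such enzyme, UBA6, had 29.1 and 20.22 FPKM (log2 ratio -0.52). The 2 ubiquitin genes, with far higher levels, differed less. UBB had 558.21 and 495.16 FPKM (log2 ratio -0.17). RPS27A had 1385.26 and 1465.43 FPKM (log2 ratio 0.08, or -0.13 with TMM factors). The 4 genes summed to 2101.24 and 2052.43 FPKM, a log2 ratio of -0.03.

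Genes of interferon signalling and peptide loading were set beside PSMB8 to PSMB10 because they share inducers with them. Of the 6 interferon regulators described, 2 were higher past 2-fold and 3 past 1.5-fold, against 17.0% and 29.3% of genes tested. None was lower past 1.5-fold, against 15.4%, and the median log2 ratio was 0.66. With 6 genes, such counts say little. STAT2, which carries the signal of type I interferons to the nucleus, had 14.29 and 41.16 FPKM (log2 ratio 1.52). IRF2 had 38.24 and 79.23 FPKM (log2 ratio 1.05), and IRF9, the DNA-binding partner of STAT2, had 14.98 and 26.71 FPKM (log2 ratio 0.83). With expected counts over the library total, IRF2 was no longer past 2-fold (0.86), and IRF9 was at 0.61. IRF1 had 26.52 and 35.24 FPKM (log2 ratio 0.41). The 6 members with a TTCNNNGAA match before the start had log2 ratios from -1.03 to -0.46, all below 0. Of all 42 members, 38 were below 0, so this count does not set them apart.

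The 7 genes of peptide loading had a median log2 ratio of 0.19, near that of all genes tested, and TAP2 alone was past 1.5-fold. TAPBP, which holds the transporter to class I molecules, had 56.43 and 69.02 FPKM (log2 ratio 0.29). NLRC5, an activator of class I genes, had 28.2 and 21.01 FPKM (log2 ratio -0.42, or -0.041 with expected counts over the library total, since its effective length differed between the libraries). TAP2 lost that call with TPM (-0.50), expected counts over the library total (-0.39) and a pseudocount of 1 (-0.58), and NLRC5 passed 1.5-fold with TMM factors (-0.63). With TMM factors STAT2 alone of the interferon regulators stayed above 2-fold, at a log2 ratio of 1.31.

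**Figure D5:**
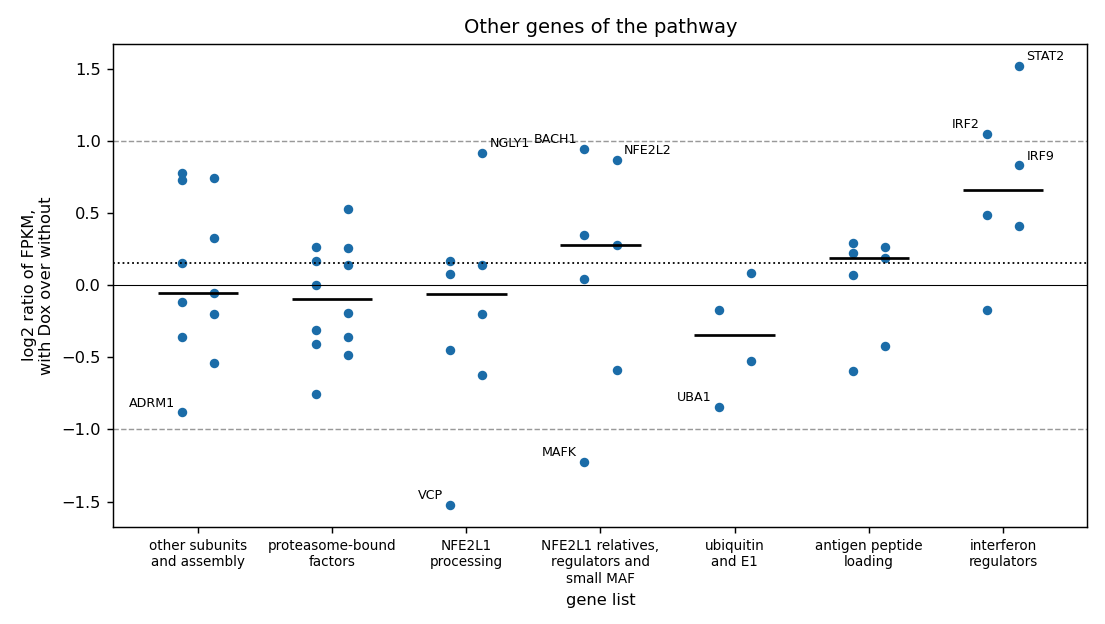
Log2 ratio of FPKM (y axis, labelled with Dox over untreated) for the tested genes of the 7 further lists (x axis), with 1 point per gene, a black bar at the median of each list, dashed lines at 2-fold and a dotted line at the median of all genes tested. Genes beyond 0.8 in either direction carry their symbol, with VCP lowest at -1.52 and STAT2 highest at 1.52.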

How the data were processed

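RNA-seq tables of 2 libraries of ARP1-SRD5A1-KD cells, 1 untreated and 1 labelled with Dox, were used. The submitters' processing notes name Bowtie 0.12.2, HISAT2 2.1.0, StringTie 1.3.4d and hg19, while 202888 of the 204675 transcripts listed are in GENCODE 29. Which tool made the estimates was not given in the sources used here. Each deposited table gives per gene an effective length, an expected count, TPM and FPKM. The authors' expected count is an estimate, and 14.5% and 15.4% of all values, zeros included, are not whole. The deposited FPKM summed to 911506 and 852316, and the deposited TPM to 1000000 and 999999.

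Groups followed the labels. Log2 ratios were taken on FPKM with a pseudocount of 0.1 for genes with at least 1 FPKM in 1 library, using Python 3.11.15, numpy 2.4.6, pandas 2.3.3, scipy 1.17.1 and matplotlib 3.10.9, after the ratio script had been tested on simulated data. The study's fold limit of 2 was kept without its p-value, since 1 library per condition gives no dispersion, and 1.5-fold was counted too. Expected counts were rounded to whole numbers for the intervals. Named were the catalytic pairs, NFE2L1, POMP and up to 5 members per group and 4 genes per further list with the largest absolute ratios at 5 FPKM or more. The remaining members were described as well, and RNAs named after a member were included at 1 FPKM or more. Some genes of the further lists are not reported here and were left out of their counts and medians. The members and lists were chosen with earlier results of these data known. Alternatives were a pseudocount of 1, no filter, TPM, expected counts over the library total and TMM factors (edgeR 4.0.16 in R 4.3.3). The background of genes at 50 FPKM or more and the sums without NFE2L1 were added after the values were seen.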

Additional observations from a re-analysis of the deposited data

How the results depend on the processing

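Under all 6 settings 38 of the 42 members had a log2 ratio below 0 and below the median of all genes tested. The scale decided the size. TMM factors moved the median of all genes by -0.20 and TPM moved it by 0.10, whereas the members' median minus that of all genes was -0.64 on FPKM, -0.64 with TPM and -0.65 with TMM factors. Of all genes tested, 6.41% were past 2-fold lower on FPKM, 5.26% with TPM, 5.61% with expected counts over the library total and 10.3% with TMM factors. With TPM, 3 members were past 2-fold lower and 15 past 1.5-fold lower, and with expected counts over the library total 5 and 19. With TMM factors the members past 2-fold lower became 12 instead of 4 and those past 1.5-fold lower 30 instead of 17. The median was then -0.70 for all members, -0.66 for PSMA, -0.90 for the constitutive PSMB genes, -0.36 for the immunoproteasome genes, -0.56 for PSMC, -1.08 for PSMD and -0.46 for the last group. With TPM these medians were -0.39, -0.36, -0.60, -0.055, -0.26, -0.77 and -0.16. The further lists of genes around the proteasome held 11, 12, 8, 7, 4, 7 and 6 genes tested. Of these genes, 2 were past 2-fold higher and 2 lower on FPKM, against 17.0% and 6.41% of all genes tested. With TPM, 4 were higher and 2 lower, against 19.1% and 5.26%. With TMM factors, 1 was higher and 4 were lower, against 13.1% and 10.3%. PSMB9 had a log2 ratio of 0.08 with TMM factors. The ratio of PSMB9 to PSMB6 differed by 1.65 to 1.68 log2 units under every setting. With expected counts divided by the library total, which leave out the effective length, PSMD5 had a log2 ratio of -0.08 and NLRC5 of -0.041. Without a filter 57485 genes entered and their median was 0.0. No paired analysis was possible because each condition has a single library, and no replicate could be left out. Counting error is small beside these values, but the spread between cultures is unknown.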

Other observations

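RNAs named after members were read separately. The antisense RNA PSMA3-AS1 had 18.38 and 31.14 FPKM (log2 ratio 0.76), while PSMA3 had a log2 ratio of -0.69. PSMB8-AS1 had 37.53 and 50.54 FPKM (log2 ratio 0.43) beside -0.56 for PSMB8, and PSMD6-AS2 had 1.11 and 1.33 FPKM (log2 ratio 0.24, with a counting interval of -0.12 to 0.61 that includes 0) beside -0.92 for PSMD6. PSMA3-AS1 and PSMB8-AS1 were thus higher and their sense genes lower under the Dox label, and the overlap of their exons leaves the division of reads uncertain for PSMB8 and PSMD6. Of 29 pseudogenes of the members, 7 had any count, with 75 and 81 counts in all. PSMC1P1 alone reached 1 FPKM, with 1.26 and 1.36 FPKM.

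The plasma cell markers, whose sum was nearly the same in both libraries, did not move together. SLAMF7, the surface receptor targeted by elotuzumab, had 15.73 and 41.75 FPKM (log2 ratio 1.40), and TNFRSF17 (BCMA), the receptor that supports plasma cell survival, had 97.72 and 203.73 FPKM (log2 ratio 1.06). SDC1 (CD138), the surface proteoglycan that marks plasma cells, had 344.56 and 236.58 FPKM (log2 ratio -0.54), and IRF4, a transcription factor that myeloma cells depend on, had 409.73 and 513.92 FPKM (log2 ratio 0.33). XBP1 (log2 ratio -0.22) and PRDM1 (log2 ratio 0.16) differed less, and CD38 had 26.62 and 26.61 FPKM.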
